A study of Homo sapiens with 8 samples.

Results

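The genes that hold an epithelial cell in its state were examined at their promoters in SUM159, a mesenchymal cell line established from a triple-negative breast cancer. They were the transcription factor genes OVOL1, OVOL2, GRHL2, KLF4, EHF and ELF3 and the splicing factor genes ESRP1 and ESRP2. These 8 genes were taken by name with earlier results of these data known, although the rule itself uses no measured value, and all 8 were found among 19962 protein-coding promoters on chromosomes 1 to 22 and X. Every cell population carried dCas9-KRAB, a nuclease-dead Cas9 fused to the KRAB repressor domain, delivered by the lentiviral vector pLV-KRAB. The All gRNA cells also carried 4 guides to the promoter of ZEB1, and the No gRNA cells carried the empty vector without a targeting guide. According to the study's methods, dCas9-KRAB was driven by the ubiquitin C promoter and transduced cells were selected with puromycin, so both groups had been infected and selected. Native ChIP-seq peaks of trimethylated histone H3 lysine 9 (H3K9me3) and lysine 4 (H3K4me3) were analysed, with 2 libraries per group and mark.

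H3K9me3 is a mark of silenced chromatin, and the KRAB domain recruits the enzymes that deposit it. H3K4me3 marks the promoters of active and poised genes and is usually strongest at CpG-rich start sites. ZEB1 is a zinc finger repressor that binds E-box motifs in epithelial promoters and drives the epithelial to mesenchymal transition. The OVOL and Grainyhead-like factors oppose that transition, and OVOL2 and GRHL2 are known to repress ZEB1. KLF4 is a Krüppel-like factor of epithelial differentiation, EHF and ELF3 are ETS factors restricted to epithelia, and ESRP1 and ESRP2 direct the epithelial splicing of transcripts such as those of CD44 and FGFR2. The question was whether the repressive or the active mark differed at these promoters once the ZEB1 promoter was targeted.

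Promoter sequences from RefSeq (GRCh38.p14), 300 bases long with 250 before the start and 50 after it, were matched for 3 of the 8 genes, KLF4, EHF and ELF3. They are shown because their CpG content differs widely and because 1 of them holds a motif that ZEB1 is known to bind. Each is written 5′ to 3′ along the gene, with CpG dinucleotides in capitals.
KLF4, chr9:107489720-107490019, minus strand: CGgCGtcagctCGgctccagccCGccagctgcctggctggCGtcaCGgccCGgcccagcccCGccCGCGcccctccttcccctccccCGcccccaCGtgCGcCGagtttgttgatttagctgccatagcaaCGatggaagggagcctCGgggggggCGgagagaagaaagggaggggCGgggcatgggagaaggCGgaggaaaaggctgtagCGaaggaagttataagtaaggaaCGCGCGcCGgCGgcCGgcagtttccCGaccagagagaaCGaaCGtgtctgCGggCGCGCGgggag
EHF, chr11:34624007-34624306, plus strand: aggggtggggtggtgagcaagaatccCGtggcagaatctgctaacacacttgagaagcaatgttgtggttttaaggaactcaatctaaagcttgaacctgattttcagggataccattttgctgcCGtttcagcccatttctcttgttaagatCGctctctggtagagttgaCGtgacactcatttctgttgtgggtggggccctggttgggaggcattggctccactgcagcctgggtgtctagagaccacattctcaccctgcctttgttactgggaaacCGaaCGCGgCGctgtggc
ELF3, chr1:202010337-202010636, plus strand: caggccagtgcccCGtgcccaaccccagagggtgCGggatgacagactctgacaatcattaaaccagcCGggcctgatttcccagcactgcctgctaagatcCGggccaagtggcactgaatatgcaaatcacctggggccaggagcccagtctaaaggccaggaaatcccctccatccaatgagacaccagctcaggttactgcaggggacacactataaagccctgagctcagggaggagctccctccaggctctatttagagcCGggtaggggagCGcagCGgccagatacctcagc
The KLF4 window held 33 CpG dinucleotides, the EHF window 8 and the ELF3 window 7. A second RefSeq promoter of EHF, which starts farther downstream at chr11:34632316-34632615, held 3. The E-box CACCTG, searched on both strands (CAGGTG on the other), was present in 7197 of 34961 RefSeq promoters (20.6%). Of the 4 promoters of these 3 genes, it was found in that of ELF3, where it begins 120 bases before the start. The 30 bases around it, with the E-box in capitals, are as follows.
ELF3 E-box: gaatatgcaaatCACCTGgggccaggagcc
The Grainyhead-like motif AACCNGTT (AACNGGTT on the other strand) was present in 604 of the 34961 promoters (1.73%) and in none of these 4. A match to these letters is a description of the sequence and shows no binding.

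The names of the deposited files give the other condition for 2 of the 8 libraries, both of H3K4me3, namely the library labelled All gRNA replicate 2 and the library labelled No gRNA replicate 1. The labels decided the groups here, and H3K4me3 libraries are named below by label. At the targeted gene, H3K9me3 peaks covered 79.4% and 82.0% of the ZEB1 transcription start site (TSS) ± 10 kb in the All gRNA libraries and 4.57% and 1.33% in the No gRNA libraries. H3K4me3 peaks covered 0% of the ZEB1 TSS ± 1 kb in replicate 1 and 100% in replicate 2 of the pair labelled All gRNA, with the same 0% and 100% in replicates 1 and 2 of the pair labelled No gRNA. Each of those 2 libraries thus matched a library of the other label at ZEB1, so a direction drawn between the labelled H3K4me3 groups rests on labels that the targeted gene goes against. Depth is unknown for all 8 libraries, as the deposited lists give peaks and no counts of reads. All deposited peaks were used, and they cover much of the genome: 23.9% to 25.4% in the H3K9me3 libraries, and 20.6% to 30.8% in the H3K4me3 libraries. The share of promoters with an H3K4me3 peak at q ≤ 0.05 in the TSS ± 1 kb ran from 9.26% to 52.6% between libraries.

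No epithelial regulator showed an H3K9me3 difference on the scale of ZEB1. A promoter was called when the groups were separated by 25 percentage points or more at their nearest libraries. None of the 8 genes was called higher or lower in All gRNA cells, beside 0.180% of all promoters called higher and 0.0351% called lower. The difference between group means (All gRNA minus No gRNA) ran from −14.8 points at GRHL2 to 16.3 points at OVOL2, against 77.8 points at ZEB1. Its median over the 8 genes was −1.75 points, with 3 genes above 0 and 5 below, and its median over all promoters was −0.92 points. With 2 libraries against 2, an exact two-sided permutation test cannot go below p = 0.33, so differences are read against the spread between libraries.

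In 4 of the 8 genes the H3K9me3 values of the groups did not overlap, 2 higher in All gRNA (OVOL2 and EHF) and 2 lower (GRHL2 and ESRP1). Over all promoters, the groups did not overlap in 11.0% with higher values and in 24.4% with lower values in All gRNA cells.

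**Figure D1:**
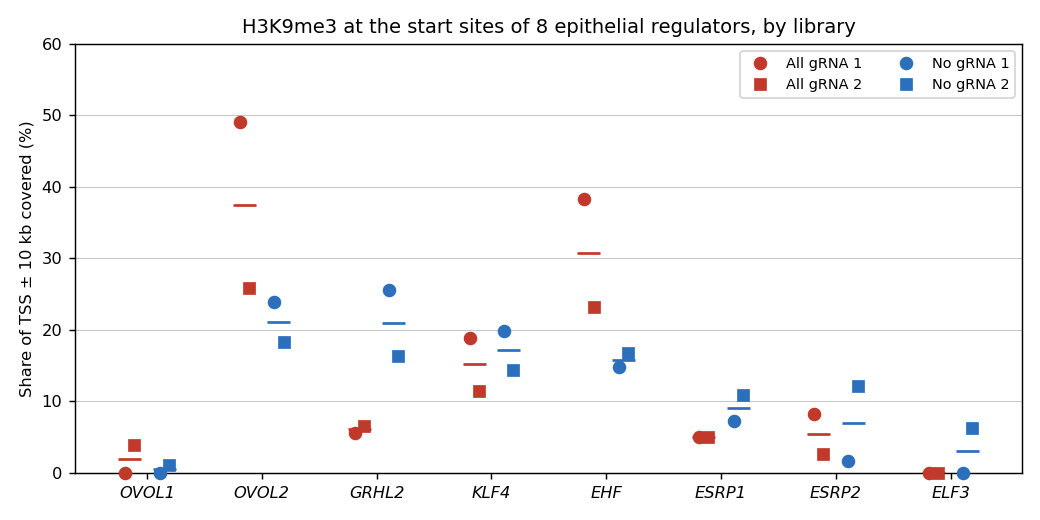
Share of the TSS ± 10 kb covered by deposited H3K9me3 peaks (%, vertical axis) for each of the 8 genes (horizontal axis). Points are single libraries, red for All gRNA and blue for No gRNA, circles for replicate 1 and squares for replicate 2, and short lines are group means (n = 2). OVOL2 and EHF had their highest value in All gRNA replicate 1 (49.1% and 38.3%), and GRHL2 was lower in both All gRNA libraries (5.59% and 6.63%) than in the No gRNA libraries (25.6% and 16.3%).

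OVOL2 (ENSG00000125850.11, hg38 chromosome 20, 17956979 to 18059188, minus strand), a zinc finger repressor of mesenchymal genes, carried the most H3K9me3 of the 8 genes. Peaks covered 49.1% and 25.9% of its window in All gRNA replicates 1 and 2, and 23.9% and 18.4% in No gRNA replicates 1 and 2. The groups were 1.97 points apart at their nearest libraries, and the difference of 16.3 points (pooled SD 11.9, n = 2 and 2; exact permutation p = 0.33) came mostly from All gRNA replicate 1. Without All gRNA replicate 2 the gene was called higher, and without All gRNA replicate 1 the difference was 4.75 points. In All gRNA replicate 1, H3K9me3 peaks covered 100% of the OVOL2 TSS ± 1 kb, against 7.35% in All gRNA replicate 2 and 62.0% in both No gRNA libraries. The only OVOL2 peak within 10 kb with q ≤ 0.05 was found in No gRNA replicate 2 (q = 0.036, fold enrichment 1.97), 2360 to 1237 bases upstream of the TSS.

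EHF, an ETS factor, showed 38.3% and 23.2% in the All gRNA libraries and 14.9% and 16.8% in the No gRNA libraries. The difference was 14.9 points (pooled SD 7.60, n = 2 and 2; exact permutation p = 0.33), and the nearest libraries of the groups were 6.42 points apart. The covered bases did not lie on the start site itself. Within 1 kb of the EHF TSS, H3K9me3 was at 0% in both All gRNA libraries, whereas No gRNA replicates 1 and 2 had 21.2% and 32.7%, the opposite order. At the first RefSeq promoter of EHF, whose sequence is shown above, H3K9me3 covered 100% in both All gRNA libraries, 0% in No gRNA replicate 1 and 100% in No gRNA replicate 2. None of the EHF peaks in the ± 10 kb window reached q ≤ 0.05, with q between 0.051 and 0.26 for the strongest peak of each library. With a window of ± 25 kb the EHF difference was −2.89 points, and that of OVOL2 −0.15 points.

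GRHL2 (ENSG00000083307.12, chromosome 8, 101492439 to 101669726), a Grainyhead-like factor that maintains E-cadherin and other junction genes, was lower in All gRNA cells. Peaks covered 5.59% and 6.63% of its window in the All gRNA libraries and 25.6% and 16.3% in the No gRNA libraries. The difference of −14.8 points was larger than the spread between libraries (pooled SD 4.68, n = 2 and 2; exact permutation p = 0.33), with 9.67 points between the nearest libraries, which is below the 25 points of a call. The strongest GRHL2 peak of each library had q between 0.21 and 0.49, so this difference lay among weak peaks. ESRP1 (ENSG00000104413.18, chromosome 8, 94641074 to 94707466) showed the same order at lower levels, with 5.08% and 5.05% in All gRNA cells and 7.23% and 10.9% in No gRNA cells, a difference of −4.00 points (pooled SD 1.83).

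The remaining genes had overlapping groups. KLF4 (ENSG00000136826.15, chromosome 9, 107484852 to 107490482, minus strand) held 18.9% and 11.4% in the All gRNA libraries and 19.8% and 14.5% in the No gRNA libraries. KLF4 was the other gene with an H3K9me3 peak at q ≤ 0.05, in All gRNA replicate 1 (q = 0.050 after rounding, fold enrichment 1.99), 9768 to 8981 bases upstream of its TSS. ESRP2 (ENSG00000103067.14, chromosome 16, 68229033 to 68238102, minus strand) varied more within a group than between groups, with 8.18% and 2.62% in All gRNA cells and 1.65% and 12.2% in No gRNA cells. OVOL1 (0%, 3.85%, 0% and 1.04% in All gRNA replicates 1 and 2 and No gRNA replicates 1 and 2) and ELF3 (chromosome 1, 202007945 to 202017183; 0%, 0%, 0% and 6.23%) were nearly free of the mark.

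**Figure D2:**
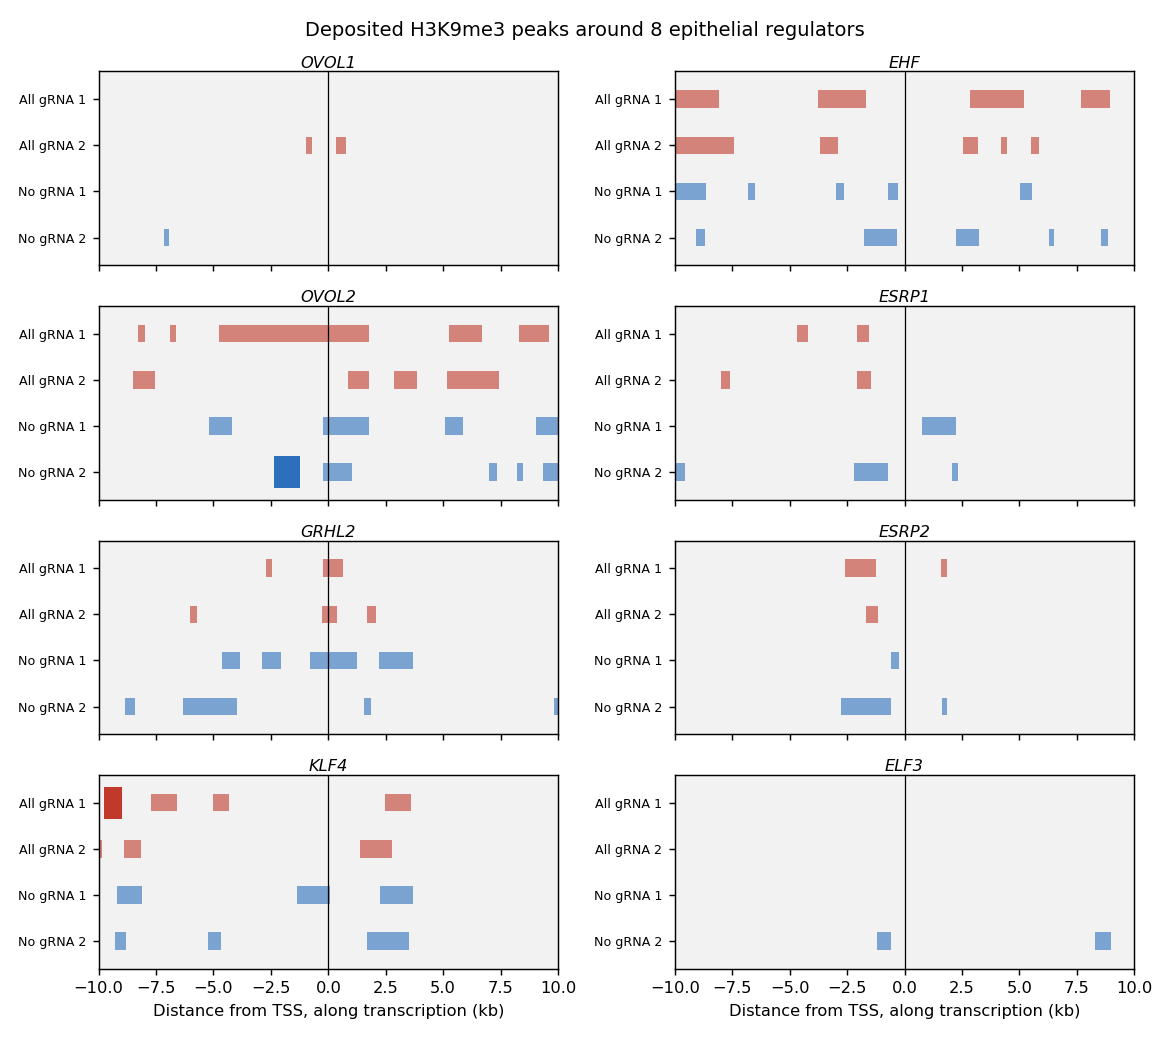
Deposited H3K9me3 peaks within 10 kb of the TSS of each gene, with distance from the TSS along the direction of transcription on the horizontal axis (kb) and 1 row per library, red for All gRNA and blue for No gRNA. Tall dark bars are peaks with q ≤ 0.05 and low pale bars are weaker peaks. A tall bar appears in 1 library each at KLF4 (All gRNA replicate 1) and OVOL2 (No gRNA replicate 2), and the OVOL1 and ELF3 panels are almost empty.

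Within 1 kb of the start sites, 3 genes had H3K9me3 peaks in both No gRNA libraries and in neither All gRNA library. A window of the TSS ± 1 kb was added after the wider window had been examined. In it both All gRNA libraries were at 0% for 5 genes, KLF4, EHF, ESRP1, ESRP2 and ELF3. The 3 genes with peaks in both No gRNA libraries were EHF, given above, ESRP1 and ESRP2, with 11.0% and 13.3% at ESRP1 and 16.5% and 21.4% at ESRP2. The peaks behind these values were weak, with q between 0.28 and 0.57. At ESRP1 they lay 781 to 2227 bases downstream of the TSS in No gRNA replicate 1. In No gRNA replicate 2 the ESRP1 peak lay 2183 to 735 bases upstream. Both All gRNA libraries had peaks just outside the window, with nearer edges 1531 and 1467 bases upstream at ESRP1. Those at ESRP2 lay 1239 and 1157 bases upstream. The order at ESRP1 and ESRP2 therefore depends on where the window ends. OVOL1 went the other way, with 0% and 36.2% in the All gRNA libraries and 0% in both No gRNA libraries, and GRHL2 overlapped, with 42.3% and 31.6% against 89.0% and 0%. KLF4 had 52.7% in No gRNA replicate 1 and ELF3 19.5% in No gRNA replicate 2, and both were at 0% in the other No gRNA library. The groups did not overlap in that direction in 4.66% of all promoters, and in 3.99% in the other direction, in which no member fell. The H3K9me3 libraries also differed over the genome: the median share of all promoters was 3.59% and 4.78% in the All gRNA libraries and 6.63% and 7.62% in the No gRNA libraries. The part of that general difference in the values of the members was not tested.

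H3K4me3 coverage of these promoters varied widely from gene to gene. The mean share of the TSS ± 1 kb over 4 libraries ranged from 18.6% at OVOL1 to 84.5% at ESRP2, with a median of 62.5% over the 8 genes, against a median of 86.8% over all promoters. These values use the outermost annotated start, and coverage at canonical starts is given below for KLF4, ELF3, ESRP2 and OVOL2. Between labelled groups, none of the 8 genes was called, beside 1.78% of all promoters called higher and 2.21% called lower in the pair labelled All gRNA. The groups did not overlap at KLF4, which was higher in the pair labelled All gRNA, and at EHF, which was lower. Over all promoters the groups did not overlap in 6.33% with higher and in 7.59% with lower values. The median difference over the 8 genes was 17.8 points (5 genes above 0, 3 below) and that over all promoters was 0. Without the 2 libraries whose file names give the other condition, the median over the 8 genes was 5.50 points, from 1 library per group and with no replicate check.

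**Figure D3:**
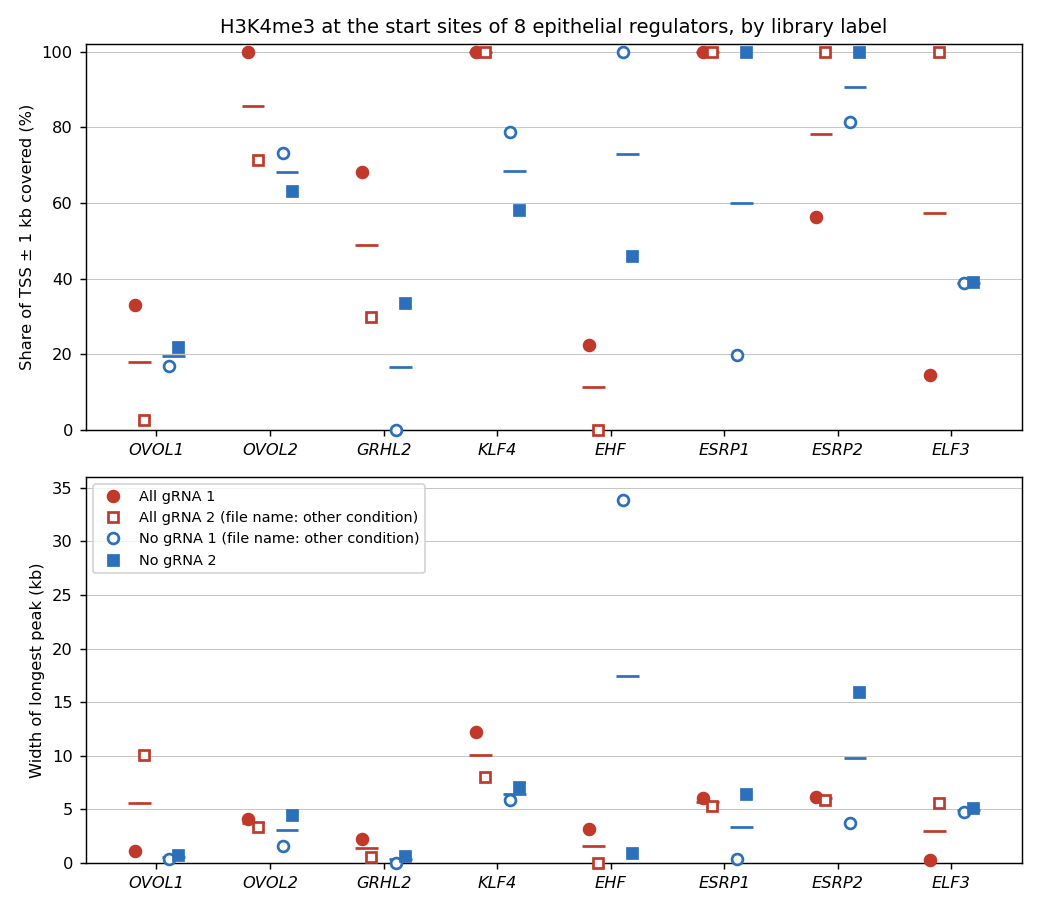
H3K4me3 at the 8 genes, as share of the TSS ± 1 kb covered by deposited peaks (%, upper panel) and as width of the longest peak that overlaps this window (kb, lower panel). Points are single libraries, red for those labelled All gRNA and blue for those labelled No gRNA, circles for replicate 1 and squares for replicate 2, with open symbols where the file name gives the other condition, and short lines are group means (n = 2). The libraries of a group lie far apart for most genes, and the open blue circle of EHF in the lower panel is a peak of 33892 bases.

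KLF4 had the best supported H3K4me3 of the 8 genes. The mark covered 100% of its TSS ± 1 kb in both libraries labelled All gRNA, 78.7% in that labelled No gRNA replicate 1 and 58.2% in that labelled No gRNA replicate 2. The difference was 31.5 points (pooled SD 10.2, n = 2 and 2; exact permutation p = 0.33), with 21.3 points between the nearest libraries. At q ≤ 0.05 or 0.01 it turned to −29.1 points, because only the peak of the library labelled No gRNA replicate 2 remained. Without both doubted libraries the values were 100% against 58.2%, and with their labels exchanged the groups would overlap. The upstream edge of the peak lay 2124 and 1819 bases before the TSS in the pair labelled All gRNA and 574 and 164 bases before it in the pair labelled No gRNA. The mark did not end at these edges, as each library had separate peaks farther upstream. Their nearest edges lay 3841 and 2844 bases before the TSS in the pair labelled All gRNA. In the pair labelled No gRNA they lay 1885 and 1206 bases before it. Around the start of the canonical transcript, 713 bases downstream, coverage was 100%, 100%, 100% and 93.9%.

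The KLF4 peak was also the 1 width called among the 8 genes. Width was taken as the longest single peak that overlapped the TSS ± 1 kb, and was called when the narrowest peak of 1 group exceeded the widest of the other by at least 500 bases. It was 12195 and 7996 bases in the pair labelled All gRNA and 5873 and 7074 bases in the pair labelled No gRNA, so the groups were 922 bases apart. Over all promoters, 6.34% were called wider and 14.6% narrower in the pair labelled All gRNA. The call rests on the labels of the 2 doubted libraries, whose widths were 7996 and 5873 bases, and the groups would overlap if these 2 labels were exchanged. Without both libraries the widths were 12195 against 7074 bases. Under this rule, leaving out 1 library cannot undo a call, so that check could not have failed and gives no support. The gene's only H3K4me3 peak at q ≤ 0.05 was in the library labelled No gRNA replicate 2 (q = 0.0062, fold enrichment 3.24). With that filter the width difference became −3537 bases. At OVOL1 the widths did not overlap either, with 1139 and 10042 bases against 337 and 739 bases, a gap of 400 bases. The values of 10042 and 337 bases came from the 2 doubted libraries, and the OVOL1 groups would overlap with these labels exchanged. The peak of 10042 bases ran from 10987 to 946 bases before the TSS, so it reached only the edge of the window. The groups did not overlap in 9.79% of all promoters with wider peaks and in 19.0% with narrower peaks in the pair labelled All gRNA.

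EHF showed irregular H3K4me3 values, and its direction rests on the doubted labels. The mark covered 22.5% and 0% of its window in the pair labelled All gRNA and 100% and 45.9% in the pair labelled No gRNA, a difference of −61.7 points (pooled SD 29.3, n = 2 and 2; exact permutation p = 0.33). The nearest libraries were 23.4 points apart. Its value of 0% and its value of 100% came from the 2 libraries whose file names give the other condition. Without both, 22.5% stood against 45.9%, and with these 2 labels exchanged the difference would change sign. The value of 100% came from a single peak of 33892 bases (q = 0.20) that ran from 27304 bases before the TSS to 6587 bases after it, in the H3K4me3 library whose peaks covered the largest share of the genome (30.8%). The other libraries had peaks of 3157, 0 and 918 bases. At the first RefSeq promoter of EHF, whose sequence is shown above, coverage was 100% and 44% in the pair labelled All gRNA and 100% and 0% in the pair labelled No gRNA. At the second RefSeq promoter the values were 0% and 69.3% against 100% and 0%. The groups overlapped at both.

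The other 6 genes had overlapping groups for the share. OVOL2 had 100% and 71.3% in the pair labelled All gRNA and 73.3% and 63.3% in the pair labelled No gRNA. GRHL2, with 68.1% and 29.8% against 0% and 33.5%, and OVOL1, with 33.0% and 2.75% against 16.8% and 22%, were among the least covered. ESRP1 was covered to 100% in 3 libraries and to 19.8% in that labelled No gRNA replicate 1, which is 1 of the doubted libraries. ESRP2 had 56.4% and 100% against 81.5% and 100%.

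ELF3 illustrated how much the choice of start site matters. At its outermost annotated start the H3K4me3 share was 14.5% and 100% in the pair labelled All gRNA and 38.8% and 39.1% in the pair labelled No gRNA. Its canonical transcript starts 2642 bases downstream, at the RefSeq promoter that holds the E-box shown above. There the 4 values were 94.9%, 100%, 100% and 100%, and the 300-base RefSeq window was covered to 100% in all 4 libraries and free of H3K9me3 peaks in all 4. The canonical starts of ESRP2 and OVOL2 lie 1975 and 1272 bases downstream, and coverage there was 100%, 100%, 100% and 53.5% at ESRP2 and 100%, 100%, 43.7% and 100% at OVOL2.

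**Figure D4:**
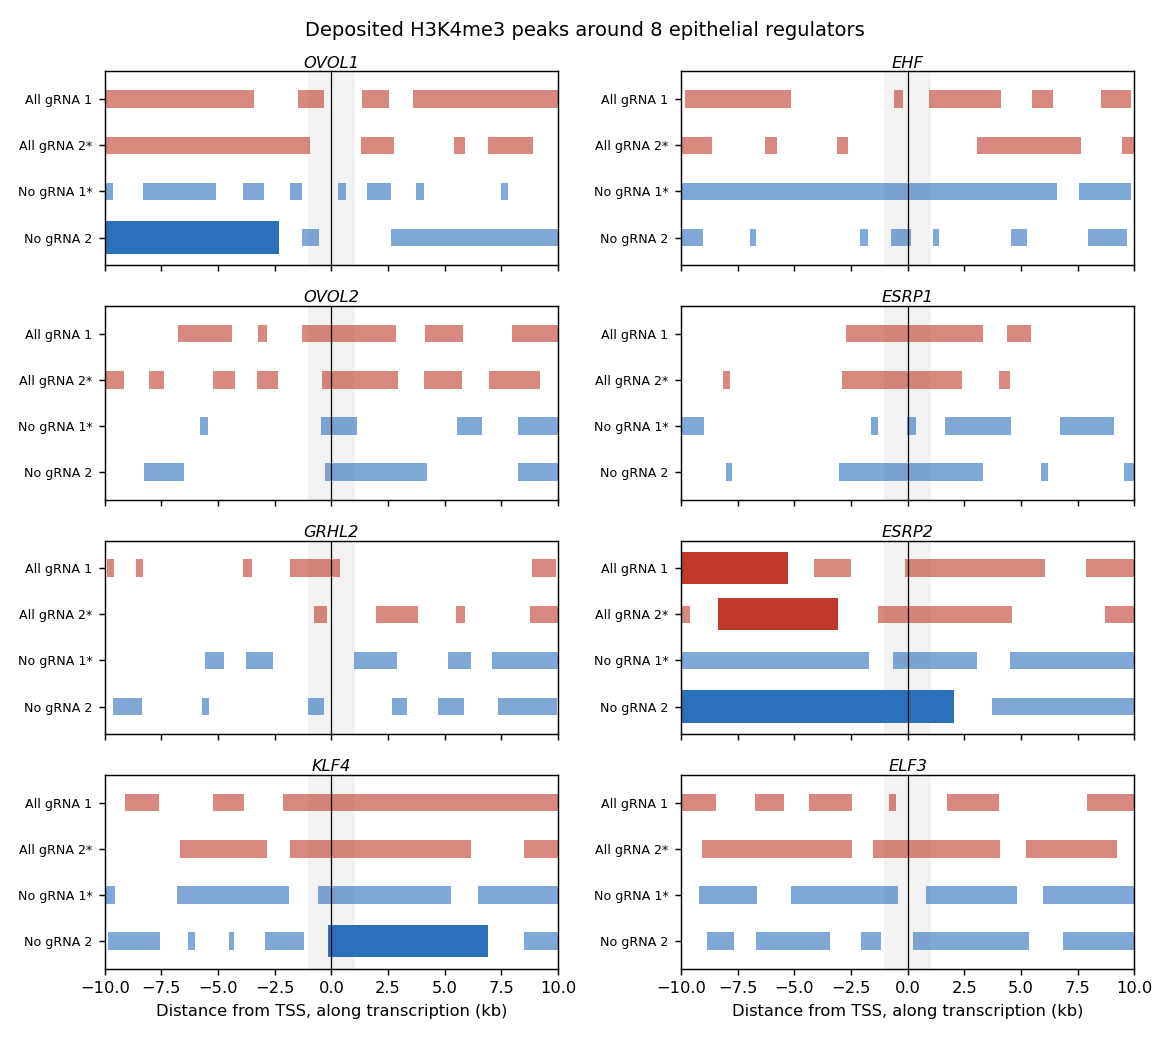
Deposited H3K4me3 peaks within 10 kb of the TSS of each gene, with distance from the TSS along the direction of transcription on the horizontal axis (kb) and 1 row per library, red for libraries labelled All gRNA and blue for those labelled No gRNA. The grey band is the TSS ± 1 kb, tall dark bars are peaks with q ≤ 0.05, and an asterisk marks a library whose file name gives the other condition. Tall bars appear at OVOL1, KLF4 and ESRP2 and at none of the other 5 genes.

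As a list, the 8 genes ranked low in peak strength at their outermost annotated starts in every library, with KLF4 above the rest. Ranked by the strength of the strongest peak in the TSS ± 1 kb among all promoters of the same library, the 8 genes had median percentiles of 32.1 and 34.5 in the pair labelled All gRNA and 43.7 and 33.1 in the pair labelled No gRNA. The 7 epithelial markers had medians of 29.5, 34.8, 49.1 and 35.5 in the same order, with single markers from 16.3 to 94.3. A list of 12 related regulators, described below, stood higher than the 8 genes in each library, with medians of 49.8, 52.5, 60.6 and 52.4. The 6 mesenchymal markers lay at 86.5, 87.2, 90.7 and 86.6, and 8 promoters that nearly all cells use at 85.6, 83.8, 89.7 and 86.2. All 6 mesenchymal markers had a peak at q ≤ 0.05 in the library labelled No gRNA replicate 2, where 2 of the 8 epithelial regulators had one, KLF4 and ESRP2. That ESRP2 peak was 15954 bases wide and ran from 13909 bases before the TSS to 2044 bases after it. In the pair labelled All gRNA the ESRP2 peaks across the TSS were weak (q of 0.63 and 0.54). In the other 3 libraries none of the 8 regulators had a peak at q ≤ 0.05 in the TSS ± 1 kb, while 5, 2 and 2 of the 6 mesenchymal markers did. In each of the 4 libraries the median of the regulators lay below the medians of the mesenchymal markers and of the widely used promoters. Promoters without a peak share the lowest rank of their library, and the lists are described without a test. Ranks at canonical starts were not computed. H3K4me3 coverage there was the same or higher in each library at KLF4 and ELF3. At OVOL2 and ESRP2 it was higher in some libraries and lower in others.

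**Figure D5:**
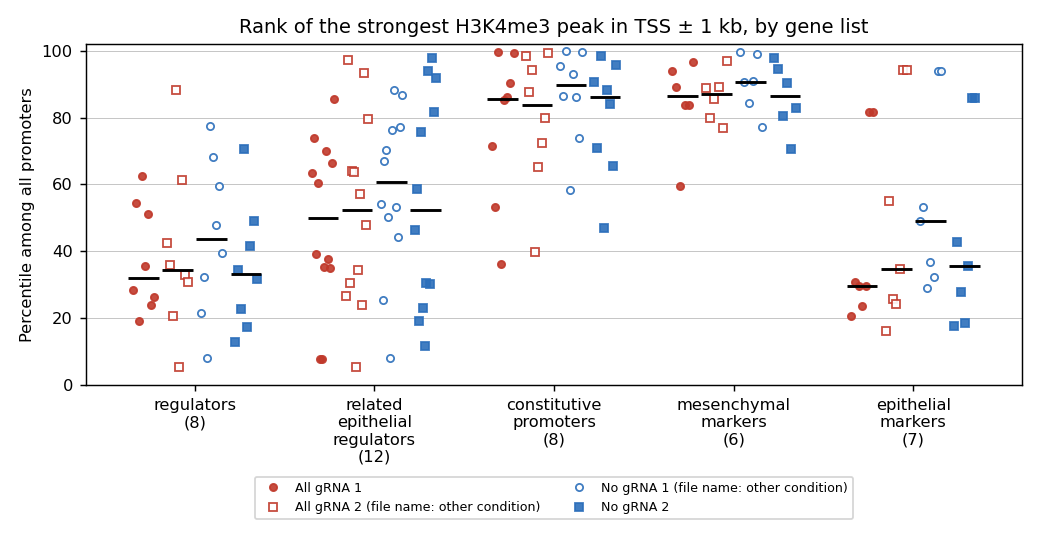
Percentile of the strongest H3K4me3 peak in the TSS ± 1 kb among all 19962 promoters of the same library (vertical axis, 0 to 100), for the 8 epithelial regulators, 12 related regulators, 8 promoters used by nearly all cells, 6 mesenchymal and 7 epithelial markers (horizontal axis). Points are genes, coloured red or blue by library label and open where the file name gives the other condition, and black lines are list medians per library. The medians of the regulators lie between 32.1 and 43.7, below those of the mesenchymal markers, which lie between 86.5 and 90.7.

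Among themselves, the regulators spanned a wide range. KLF4 stood highest, at percentiles from 62.6 to 88.4 over the 4 libraries (mean 74.8), and ESRP1 came next (41.6 to 61.2, mean 50.5). ESRP2 (mean 41.4) and OVOL2 (mean 39.3) overlapped with ESRP1 in their ranges. ELF3 (mean 32.1), EHF (mean 31.7) and OVOL1 (mean 26.3) followed without clear separation, and GRHL2 was lowest, at 8.23 to 22.8 (mean 17.8). Stronger peaks sometimes lay near a gene rather than at its start. ESRP2 had peaks with q of 0.016 and 0.015 whose nearer edges lay 5295 and 3054 bases upstream in the pair labelled All gRNA, and OVOL1 had 1 with q = 0.038 whose nearer edge lay 2329 bases upstream in that labelled No gRNA replicate 2. The neighbouring genes to which such peaks may belong were not examined.

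The gene richest in CpG had the lowest mean H3K4me3 share, although GRHL2 lay lower in peak strength. The TSS ± 1 kb of OVOL1 (ENSG00000172818.10, hg38 chromosome 11, 65787063 to 65797214) held 225 CpG dinucleotides (percentile 98.7 among all promoters), beside its mean H3K4me3 share of 18.6%. Of 253 promoters with at least as many CpG dinucleotides, the median share was 96.1%, and 17 (6.72%) had a share at or below that of OVOL1. KLF4 (170 CpG, percentile 91.8), ESRP2 (125) and ESRP1 (119) were also above the median promoter, which held 90. GRHL2 held 91, OVOL2 66, ELF3 27 and EHF 11. EHF (ENSG00000135373.13, chromosome 11, 34621093 to 34663288) stood at percentile 3.65.

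Related regulators were examined in the same way, in a list of 12 family members and further genes (among them OVOL3, GRHL1, GRHL3, KLF5, ELF5 and the RNA-binding splicing factor RBM47). For H3K9me3 none of the 12 was called. The differences were below 0 in all 12, with a median of −4.49 points, and below 0 in 11516 of the 19962 promoters. This order was not particular to the list. The 6 mesenchymal markers were all below 0 (median −5.50 points), as were 6 of the 8 widely used promoters and 4 of the 7 epithelial markers. TFAP2A had the highest mean H3K9me3 share, with 49.9% and 40.8% in All gRNA cells and 37.9% and 53.9% in No gRNA cells, and GRHL3 the lowest, with 0% to 4.83%. For H3K4me3, 2 of 12 were called, both lower in the pair labelled All gRNA. Over all promoters, 2.21% were called lower and 1.78% higher. ELF5, an ETS factor of mammary alveolar cells, had 0% and 20.5% against 100% in both libraries labelled No gRNA, and GRHL3 had 63.6% and 60.3% against 100% in both. TP63, a regulator of basal epithelia, was covered to 100% in all 4 libraries, and SPDEF was at 0% in all but the library labelled No gRNA replicate 2 (79.6%). Of the epithelial markers CLDN3 was called higher (100% in both against 0.10% and 34.3%) and CLDN4 lower (32.3% and 32.2% against 100% and 62.9%), so these tight junction genes were called in opposite directions. The calls of ELF5, GRHL3, CLDN3 and CLDN4 all rest on the doubted labels, and with these labels exchanged the groups would overlap at each gene.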

How the data were processed

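Peak lists of 8 native ChIP-seq libraries of SUM159 cells were analysed, with 2 per mark and group, and samples were grouped by their labels. According to the study's methods, reads were trimmed with fastp and aligned with bowtie2 to hg38, duplicates and excluded regions were removed, and MACS2 called broad peaks in each library. The submitters' processing notes instead name bcl2fastq 2.17, Trimmomatic 0.33, Bowtie 1.1.2 and MACS2 2.1.0. Whether input served as control is not given in the sources used here. The authors deposited for each peak a score, a fold enrichment ratio and the statistical support, given as −log10 values of the p-value and of the q-value. All deposited peaks were kept, down to a −log10 p-value of about 1.00, so weak regions are included. No reads were counted, so depth and counting error are unknown.

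For each library, overlapping peaks were joined and the covered share of the TSS ± 10 kb (H3K9me3) or ± 1 kb (H3K4me3) was computed for 19962 protein-coding genes of GENCODE 44, with the TSS at the 5′ end of the gene. A promoter was called when the groups lay at least 25 percentage points (500 bases for width) apart, over all promoters. With 2 against 2 libraries, an exact two-sided permutation test cannot go below 0.33. Alternatives covered other q thresholds (0.05 and 0.01), windows, gaps, start sites, equal covered length, a replicate block and each library left out. The text names the 8 genes, ZEB1, list genes past the gap, and the promoter most like each gene, of which 1 is not reported here. The members, lists and motifs were chosen with earlier results of these data known. The scripts were tested on simulated peaks. Python 3.11.15, numpy 2.4.6, pandas 2.3.3 and pysam 0.24.0 were used. The labels call the replicates biological.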

Additional observations from a re-analysis of the deposited data

How the results depend on the processing

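Over the alternatives, 38 of 71 summary values stayed within the limits set for them, as did 214 of 272 values of single genes. These counts are no measure of stability. They include values that could not move, such as every mean difference under the replicate block. For single genes the limit was the pooled SD, so a change of sign could lie within it. The ESRP1 width difference, for example, went from 2273 to −719.5 bases without No gRNA replicate 1. The label conflict of 2 H3K4me3 libraries, weak peaks and 2 libraries per group limit the results, and depth could not be assessed. At q ≤ 0.05 the median differences over the 8 genes were 0 for both marks' shares, with 350 H3K4me3 promoters (27 higher, 323 lower) and 906 widths called. At q ≤ 0.01 the medians were again 0, with 28 H3K9me3 promoters, 204 H3K4me3 promoters and 290 widths called. At q ≤ 0.05 the OVOL2 H3K9me3 difference became −2.81 points, and at both thresholds KLF4 became −29.1 points and −3537 bases, since few peaks of these genes remained. At equal covered length OVOL1 H3K4me3 became 17.9 points, with 408 promoters called higher and 285 lower in place of 356 and 442, and OVOL1 was called wider beside KLF4. H3K9me3 windows of ± 5 and ± 25 kb gave 92 and 28 called promoters, and at ± 25 kb OVOL2 became −0.15, KLF4 3.76 and EHF −2.89 points. OVOL1 H3K4me3 at ± 2 kb was 18.5 points, and with ± 500 bases EHF was called lower. At canonical starts ESRP2 H3K4me3 was 23.3 points, and with gaps of 1 kb joined the ELF3 width difference was 1782 bases. A gap of 50 points left 3 H3K9me3 and 205 H3K4me3 promoters. KLF4 was not called wider with a gap of 1000 bases.

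With each library left out in turn, the median over the 8 genes ran from −3.56 to 0.96 points for H3K9me3 (0.36 without All gRNA replicate 2 and 0.96 without No gRNA replicate 2), from 7.73 to 22.6 points for H3K4me3 and from −29.5 to 2258 bases for width. The counts called ran from 133 to 197, from 2150 to 3686 and from 8729 to 11136, as fewer libraries had to agree. Leaving out 1 H3K4me3 library called ELF3 higher and EHF lower (All gRNA replicate 1), OVOL2 and GRHL2 higher and ESRP2 lower (All gRNA replicate 2), KLF4 higher (No gRNA replicate 1), or GRHL2 and ESRP1 higher and EHF lower (No gRNA replicate 2). For width, KLF4 was called wider each time, which the rule fixes in advance for a gene already called. Without No gRNA replicate 2, 6 genes including KLF4 were called wider and EHF narrower. Without All gRNA replicate 1, OVOL1 was called wider and EHF narrower. GRHL2 was called wider and ELF3 narrower without All gRNA replicate 2, and ESRP2 narrower without No gRNA replicate 1. Without both doubted libraries the H3K4me3 median was 5.50 points, 4718 promoters and 15705 widths were called, ELF3 became −24.6 points and the EHF width difference 2239 bases.

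Libraries share a replicate number between groups, but their deviations did not move together (correlation 0.026 for H3K9me3 and 0.015 for H3K4me3 over promoters), so the numbers were not taken to pair them. With the replicate block, 66 H3K9me3 promoters, 1110 H3K4me3 promoters and 6627 widths were called, and EHF was called lower for H3K4me3, OVOL1 and KLF4 wider and EHF narrower.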

Other observations

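Over whole gene bodies, KLF4 was the gene most fully covered by H3K4me3, with 100%, 100%, 94.1% and 100% of its 5631 bases in the libraries labelled All gRNA replicates 1 and 2 and No gRNA replicates 1 and 2. H3K9me3 peaks covered 20.3%, 25.2%, 27.0% and 32.0% of the same bases, and the 2 groups were 1.81 points apart at their nearest libraries. In the long genes OVOL2 (102210 bases) and GRHL2 (177288 bases) the H3K9me3 share of the gene body was 12.3% to 18.5% and 10.7% to 18.9%, with group means that differed by −3.27 and −3.15 points. The OVOL2 difference therefore had the opposite sign to that of its TSS window.

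The promoter on another chromosome whose 8 library shares were nearest to those of a gene, by Euclidean distance in percentage points, was TNK2 for ESRP1 (5.42), C17orf107 for OVOL1 (6.19), ENSG00000289517 for ELF3 (12.2), VEPH1 for KLF4 (16.5), PRSS48 for GRHL2 (20.5), C1orf226 for EHF (23.8) and RNASE12 for OVOL2 (30.1). Among the 8 genes themselves, a far smaller pool, KLF4 and OVOL2 were the nearest pair, at 45.0, and OVOL1 and GRHL2 lay 57.5 apart.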
